A study of Caenorhabditis elegans with 2 samples.

Results

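The Hox genes of Caenorhabditis elegans are ceh-13, lin-39, mab-5, egl-5, nob-1 and php-3. These 6 genes were chosen by name, out of 19973 protein-coding genes on the nuclear chromosomes, and all 6 were found in the Ensembl annotation of WBcel235 (ce11). Around each gene start, the summits of chromatin immunoprecipitation (ChIP-seq) regions for IRX-1 were collected within 20 kb on either side. The worms were hermaphrodite L1 larvae of strain OP536, genotype unc-119(tm4063) III; wgIs536, in which a transgene expresses IRX-1 with a GFP-FLAG tag at its C-terminus, and an antibody to GFP was used. They were collected 6 hours after synchronization by starvation of L1 larvae hatched from bleached animals. The 2 biological replicates form 1 group, and with nothing to set them against, no contrast of conditions was possible. Whole animals were used, so a region cannot be placed in a cell type. How many copies the transgene has, and how its level compares with the native protein, is not stated in the labels.

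Hox genes encode homeodomain transcription factors that give cells their identity along the head-to-tail axis, and most animals keep them in a cluster. In the worm the cluster is broken into pairs on chromosome III. The labial relative ceh-13 acts in the anterior and lin-39 in the mid-body, where it specifies vulval precursor cells. The Antennapedia-like mab-5 acts in the posterior body, and the Abdominal-B relatives egl-5, nob-1 and php-3 act in the tail. IRX-1 belongs to another homeodomain family, the Iroquois proteins, so the question here is which Hox genes carry its signal and where.

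The lists hold 2445 regions (optimal), 28191 (pooled, permissive), 30000 (replicate 1) and 24949 (replicate 2). The optimal list is the part of the pooled list that passed the authors' threshold on the irreproducible discovery rate (IDR), which scores the repeatability of ranks across replicates. Regions below that threshold include background by design. Peak scores are the authors' own, have no stated formula and are comparable within a list only. Read totals were not used, so library depth is unknown.

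The sequences on which the description below turns are shown first. Each runs from 75 bp before to 75 bp after the pooled summit, on the strand of the named gene, read from the RefSeq sequence of WBcel235. Capitals mark a match, on either strand, to TGATNNAT (a site form known for Hox proteins with their Pbx partners), TAATTA (a homeodomain core), ACATGT (the core known from mouse Iroquois proteins), GAGAGA or CGCGCG. Those called peaks are in the optimal list, and those called regions lie below the threshold.
ceh-13 promoter peak (chrIII:7554953-7555103, plus strand): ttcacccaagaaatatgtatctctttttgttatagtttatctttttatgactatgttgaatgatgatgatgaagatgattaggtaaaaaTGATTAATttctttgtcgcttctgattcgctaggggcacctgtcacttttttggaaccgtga
ceh-13 downstream peak (chrIII:7559970-7560120, plus strand): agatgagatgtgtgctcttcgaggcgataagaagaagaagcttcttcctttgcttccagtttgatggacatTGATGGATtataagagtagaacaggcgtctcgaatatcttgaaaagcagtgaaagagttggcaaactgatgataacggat
mab-5 promoter peak (chrIII:7784319-7784469, minus strand): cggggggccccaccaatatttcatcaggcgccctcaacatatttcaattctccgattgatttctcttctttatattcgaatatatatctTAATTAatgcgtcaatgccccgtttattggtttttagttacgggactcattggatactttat
lin-39 intron region (chrIII:7534796-7534946, minus strand): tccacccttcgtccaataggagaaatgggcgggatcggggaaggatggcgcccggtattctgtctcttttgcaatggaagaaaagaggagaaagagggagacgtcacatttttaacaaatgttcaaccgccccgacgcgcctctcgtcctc
nob-1 promoter region (chrIII:12084995-12085145, minus strand): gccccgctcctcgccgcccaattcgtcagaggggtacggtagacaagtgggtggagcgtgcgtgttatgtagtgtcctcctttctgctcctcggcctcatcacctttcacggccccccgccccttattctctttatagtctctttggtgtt

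Of the 6 Hox genes, ceh-13 and mab-5 carried an optimal summit in their promoter window, the sequence between 1000 bp before and 200 bp after the gene start. That is 2 of 6, where 9.60% of all protein-coding genes had one. With a window from 500 bp before to 100 bp after the start the count was 0 of 6, where 7.68% of genes had one. With the 1222 highest-scoring optimal peaks it was 1 of 6 (ceh-13), where 5.60% did. The windows of lin-39, egl-5, nob-1 and php-3 held no optimal summit. Within 20 kb of the start, ceh-13, lin-39, mab-5 and php-3 had at least 1 optimal summit, 4 of 6, where 56.1% of protein-coding genes did. Taken once each, 8 optimal summits lay near a Hox gene, because the ceh-13 promoter peak also lies within 20 kb of the lin-39 start. All 8 were intergenic, and none lay in an intron or exon of a protein-coding gene. The shares of all optimal summits that are intergenic or in a promoter window are not given here. Neither this count nor the split that follows can thus be called particular to Hox genes. Of these 8, 2 were in a promoter window of a Hox gene (25.0%, 95% Wilson interval 7.15 to 59.1%), 4 in a window of another protein-coding gene and 2 in none. The interval covers counting error only and takes the summits as independent, though 4 of them lie around ceh-13 alone. Each of the 8 summits lay inside a region of both replicate lists, as did 99.2% of all optimal summits.

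**Figure D1:**
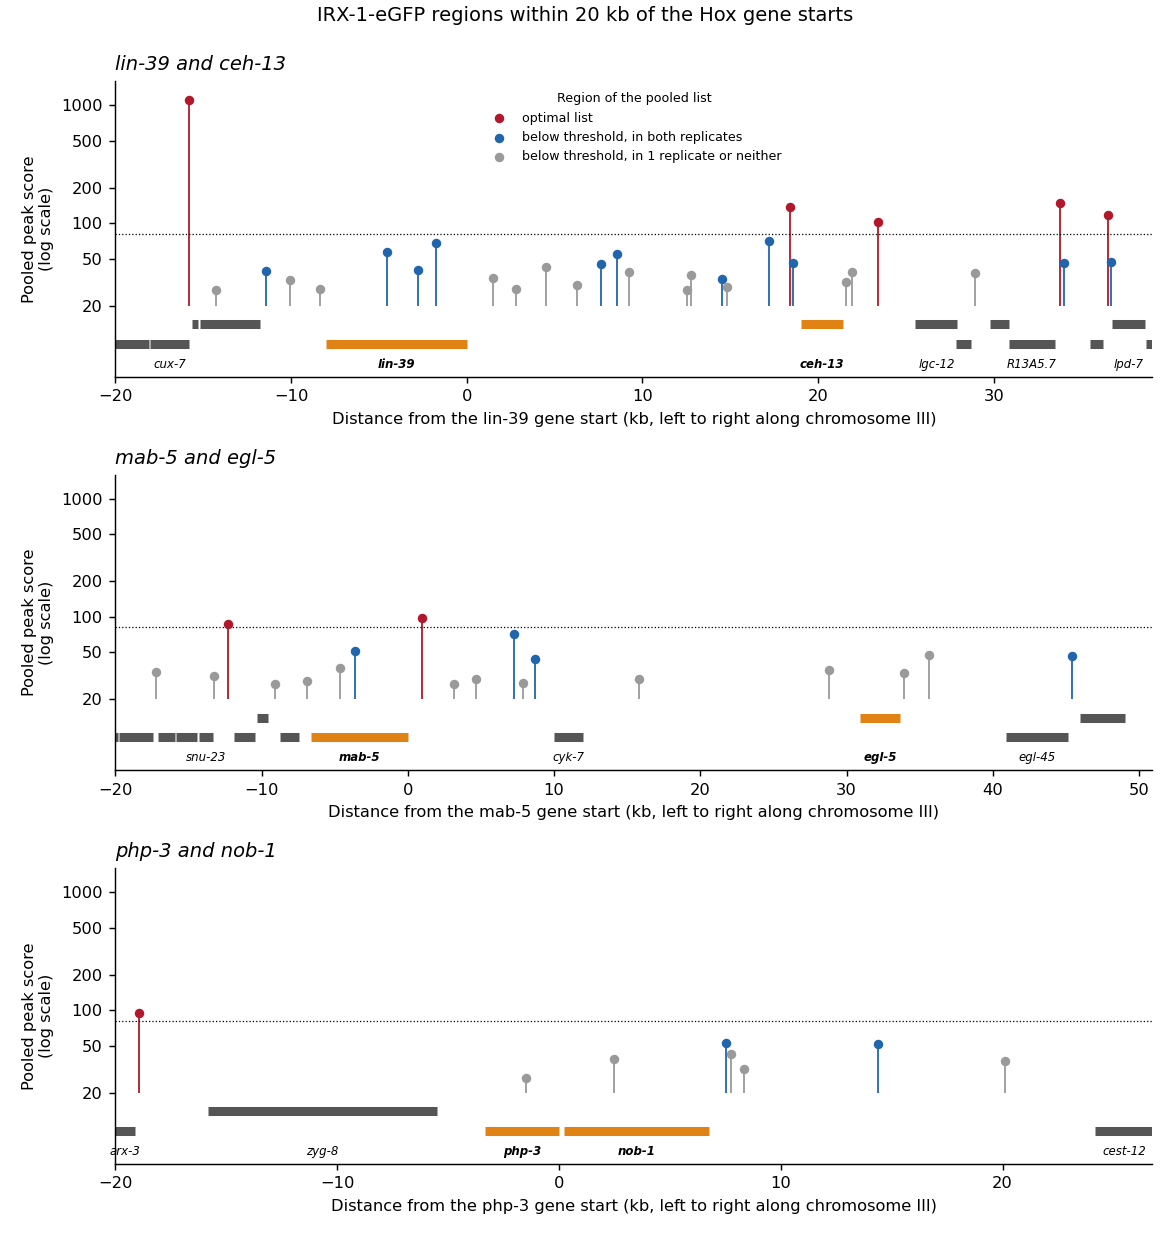
Pooled regions around the Hox genes by distance from a gene start (kb) and pooled peak score (log scale). Stems start at a score of 20, the dotted line is the lowest optimal score (81.4), and bars are protein-coding genes (Hox genes in orange, plus strand above minus strand). The 8 optimal summits (red) include the ceh-13 and mab-5 promoter peaks, and none lies within 20 kb of egl-5 or nob-1.

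The labial relative ceh-13 (WBGene00000437, chromosome III, 7555660 to 7558041, plus strand) had the most optimal summits. Its promoter peak (chromosome III, 7554823 to 7555232) had a pooled score of 137 and ranked 1152 in the pooled list. It scored 67.1 in replicate 1, where it ranked 1397, and 70.8 in replicate 2, where it ranked 936. The pooled summit lay 632 bp upstream of the start, and the replicate summits lay within 14 bp and 1 bp of it. So both replicates placed the summit at nearly the same base. A weaker pooled region, which overlaps this peak, had its summit 433 bp upstream (score 45.7).

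A second optimal peak (7559840 to 7560249, score 103) lay downstream of ceh-13, 4385 bp past its start. It is between ceh-13 and lgc-12, 2127 bp upstream of the latter, and in no promoter window. It ranked 2092 in replicate 1 (score 51.6) and 1262 in replicate 2 (score 58.1). The other 2 optimal summits of the ceh-13 window belong to promoters of neighbours. One (7570218 to 7570627, score 147) lay 290 bp upstream of R13A5.7. The other (7572900 to 7573309, score 117) lay in the shared upstream stretch of rpl-9, a ribosomal protein gene, and lpd-7, with its summit 245 bp from lpd-7 and 16 bp from the non-coding RNA gene R13A5.16. With 4 optimal summits within 20 kb, ceh-13 stood high, since 3.85% of protein-coding genes had at least as many.

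The vulval regulator lin-39 (WBGene00003024, 7528641 to 7536632, minus strand) had no region of the pooled or replicate 2 list in its promoter window. Replicate 1 had 1 summit there, 22 bp upstream of the start, with a score of 22.3. Its own introns held 3 pooled summits, all below the threshold. The highest of these (7534666 to 7535075, score 68.3) had its summit 1761 bp downstream of the gene start, 66 bp upstream of the start of a shorter lin-39 transcript. Its pooled rank was 3272, and it ranked 3580 in replicate 1 (score 38.4) and 5465 in replicate 2 (score 26.3), so it was present in both but below the threshold. The other intron summits scored 56.7 and 39.8, and each lay inside a region of both replicates.

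The optimal summit nearest to lin-39 was not at a Hox gene. It lay 15786 bp downstream of the lin-39 start, 1 bp upstream of cux-7 (7520711 to 7520987), with a score of 1101. The summit is also in the promoter windows of C07H6.2 and lig-4. In the replicate lists the summit fell inside a cux-7 exon, 3 bp (replicate 1) and 2 bp (replicate 2) past the cux-7 start. The pooled rank of this peak was 3, with rank 5 in replicate 1 and rank 2 in replicate 2. It was the highest of the 8, and the next highest scored 147.

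**Figure D2:**
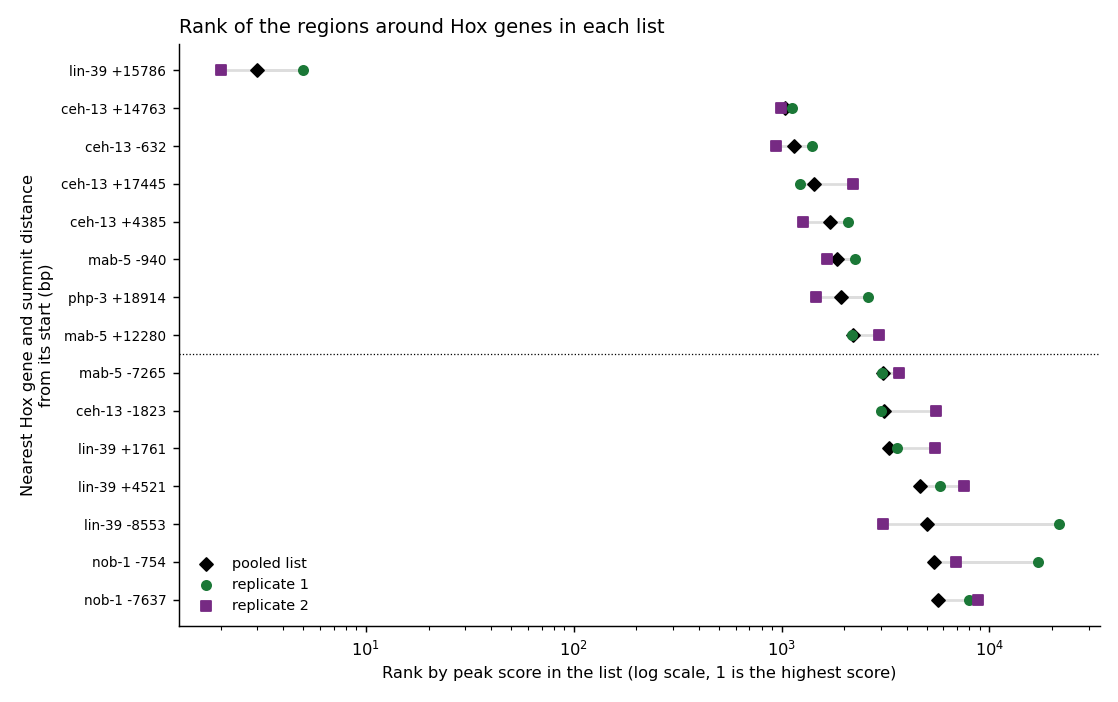
Rank by peak score (log scale, 1 is the highest) of regions around the Hox genes in the pooled list (diamonds), replicate 1 (circles) and replicate 2 (squares), named by the nearest Hox gene and the summit's distance from its start in bp, positive downstream. The 8 optimal regions are above the dotted line. Under it are 7 of the 17 regions below the threshold that both replicates hold, those with a pooled rank up to 5700. Among the regions drawn, the replicates lie furthest apart on this scale for the lin-39 region at -8553. The lists differ in length, so ranks are not a change between lists.

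The stretch between lin-39 and ceh-13 is 19027 bp long, holds no other protein-coding gene, and is the upstream sequence of both. It held 14 pooled summits, or 0.736 per kb. Across 2089 stretches of at least 5000 bp between protein-coding genes, the median was 0.284 per kb, and 90.0% of them had a lower value. The replicates gave 0.631 per kb (12 summits, replicate 1) and 0.578 per kb (11 summits, replicate 2), above 82.4% and 86.5% of stretches. Only the ceh-13 promoter peak among the 14 was optimal. The next in score (7553632 to 7554041, score 70.1) had its summit 1823 bp upstream of ceh-13 and ranked 3003 in replicate 1 and 5544 in replicate 2. Its summit has a TGATNNAT match within 50 bp. Another region (7544980 to 7545389, score 54.7), named after its value was seen, had its summit 30 bp upstream of the microRNA gene cel-mir-231. It ranked 21494 in replicate 1 (score 18.3) and 3068 in replicate 2 (score 34.2), so the replicates placed it far apart. The minimum length of these stretches was chosen after seeing the data.

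The posterior gene mab-5 (WBGene00003102, 7776835 to 7783454, minus strand) had an optimal peak at the far end of its promoter window (7784189 to 7784598, score 97.5). The pooled summit was 940 bp upstream of the start. Its pooled rank was 1855, and it ranked 2257 in replicate 1 (score 49.5) and 1644 in replicate 2 (score 49.1). The replicate 2 summit lay 6 bp from the pooled summit and that of replicate 1 lay 116 bp from it. Replicate 1 had a second, lower-scoring region over the pooled summit (score 34.9). Its summit was 1025 bp upstream of the start, just outside the window. The other optimal summit of the mab-5 window (7770969 to 7771378, score 87.0) lay 12280 bp downstream of its start, beyond the gene's 3' end, and 1054 bp upstream of snu-23, just outside that gene's window. It ranked 2185 in replicate 1 and 2937 in replicate 2.

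Further regions lay upstream and inside mab-5, below the threshold. One (7790514 to 7790923, score 70.9) had its summit 7265 bp upstream and ranked 3054 in replicate 1 and 3657 in replicate 2. An intron region (7779651 to 7780060, score 51.1) ranked 3458 in replicate 1 and 20554 in replicate 2, and its summit has TGATNNAT and GAGAGA matches within 50 bp. The upstream stretch of mab-5 (9991 bp, up to cyk-7) held 6 pooled summits, or 0.601 per kb, above 82.0% of stretches. Replicate 1 had 5 summits there and replicate 2 had 4, above 71.2% and 71.8% of stretches.

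Its neighbour egl-5 (WBGene00001174, 7814374 to 7817141, plus strand), which acts in the tail, had the fewest regions of the 6 genes. The pooled list had 5 summits within 20 kb, replicate 1 had 8 and replicate 2 had 3. None lay in its promoter window or its introns in any of the 4 lists. The nearest pooled summit was 2145 bp upstream (score 35.5), in a region that replicate 2 lacked. The highest pooled score in the window was 47.3. The upstream stretch of egl-5 is nearly as long as that of ceh-13, at 18964 bp, and held 2 pooled summits, 0.105 per kb, above 23.3% of stretches. Replicate 1 had 3 summits there (0.158 per kb) and replicate 2 had 0. The nearest optimal summit was the mab-5 promoter peak, 29980 bp away.

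The adjacent Abdominal-B relatives nob-1 (WBGene00003779, 12077793 to 12084316) and php-3 (WBGene00004024, 12074218 to 12077556) lie on the minus strand with 236 bp between them. The promoter window of nob-1 held 2 pooled summits below the threshold. The higher (12084865 to 12085274, score 53.0), 754 bp upstream, ranked 17143 in replicate 1 (score 20.3) and 6867 in replicate 2 (score 24.0). Counting regions below the threshold, 3 of 6 Hox genes (ceh-13, mab-5 and nob-1) had a pooled summit in the window, where 38.1% of protein-coding genes did. A further region 7637 bp upstream of nob-1 (score 51.9) had its summit at the same base in both replicates, where it ranked 7967 and 8778. The window of php-3 is short of free sequence, since most of it lies inside nob-1, and held no summit in any of the 4 lists. The only optimal summit within 20 kb of php-3 (12058437 to 12058846, score 94.7) lay 18914 bp downstream, 184 bp upstream of arx-3, and ranked 2596 in replicate 1 and 1461 in replicate 2. The upstream stretch of nob-1 (17428 bp) held 0.287 pooled summits per kb, near the median, with 0.402 per kb in replicate 1 and 0.230 in replicate 2.

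Over all lists, the anterior pair and mab-5 had more regions nearby than the tail genes. The pooled list had 22 summits within 20 kb of ceh-13, 22 of lin-39, 14 of mab-5, 5 of egl-5, 7 of nob-1 and 7 of php-3, where the median protein-coding gene had 10.0. Fewer summits were found around 96.4% of protein-coding genes than around ceh-13 or lin-39, whose windows share the stretch between them. The order was close to this in replicate 1 (23, 20, 12, 8, 9 and 11) and in replicate 2 (15, 18, 10, 3, 6 and 7). In each list the 3 lowest counts were those of egl-5, nob-1 and php-3. With 1 value a list and shared windows, no test of this order was made. The number of neighbouring genes also differed between these groups, though not in the same order within them: 7, 5 and 9 other protein-coding genes start within 20 kb of ceh-13, lin-39 and mab-5, and 3, 1 and 3 within 20 kb of egl-5, nob-1 and php-3. The part of gene density in the counts was not tested. These Hox genes lie on chromosome III, where the median protein-coding gene had more pooled and replicate summits than genome-wide. Against that chromosome's median, mab-5 was above in the pooled list but below in both replicates. Fewer summits than around mab-5 were found around 54.4% (replicate 1) and 53.2% (replicate 2) of all protein-coding genes. In these lists ceh-13 and lin-39 were above the chromosome's median, and egl-5, nob-1 and php-3 below it.

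**Figure D3:**
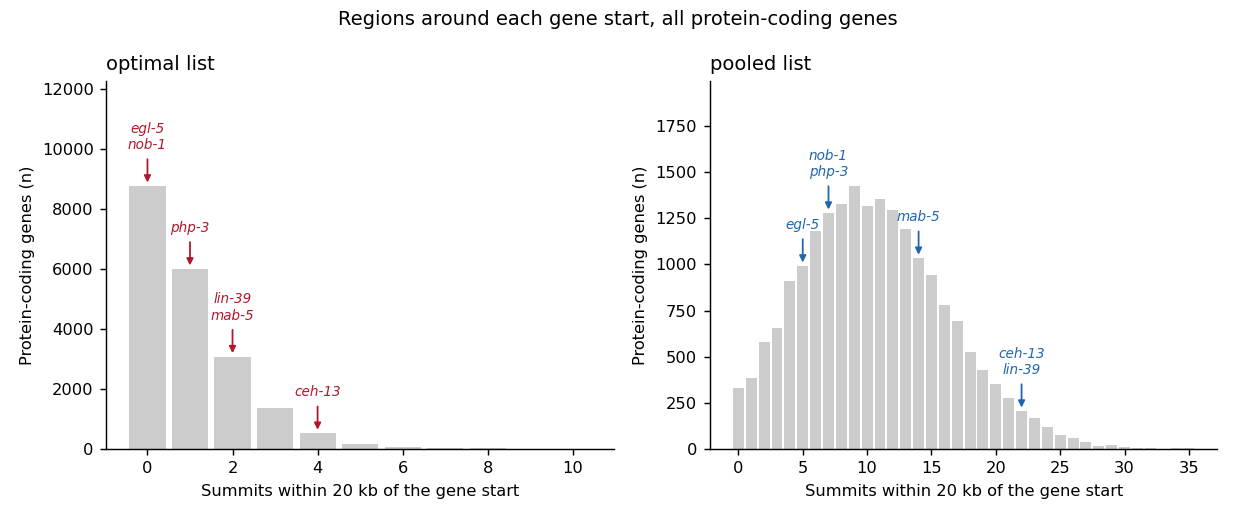
Protein-coding genes (n) by the number of summits within 20 kb of the gene start, in the optimal list (left) and the pooled list (right), with the Hox genes marked. In the pooled list ceh-13 and lin-39 stand at 22, while egl-5, nob-1 and php-3 stand at 5, 7 and 7, below the median of 10.0.

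The median score of the 8 optimal peaks was 110.0, and that of the whole optimal list was 131. Scores ran from 87.0 to 1101, and 3 of the 8 were above the list's median. The ceh-13 promoter peak (137) was just above that median and the mab-5 promoter peak (97.5) was below it. Below the threshold, 48 pooled summits lay near a Hox gene. Of these, 17 (35.4%) lay inside a region of both replicates, close to the 37.6% of all such regions in the pooled list, 17 in replicate 1 only, 11 in replicate 2 only and 3 in neither.

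The promoter peaks of ceh-13 and mab-5 were poor in G and C. Within 50 bp of the summit the GC content was 30.7% at ceh-13 and 33.7% at mab-5, and 4.05% and 6.75% of all optimal summits were lower. The peak downstream of ceh-13 had 38.6%. The other 5 summits, at or near starts of neighbouring genes, had 44.6 to 57.4%, and the median of all optimal summits was 46.5%. The highest, near snu-23, had 92.6% of optimal summits below it. At the 48 summits below the threshold the median was 34.7%, as in all regions below it. The nob-1 promoter region shown above instead had 59.4%, and the printed bases hold no match to the motifs.

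**Figure D4:**
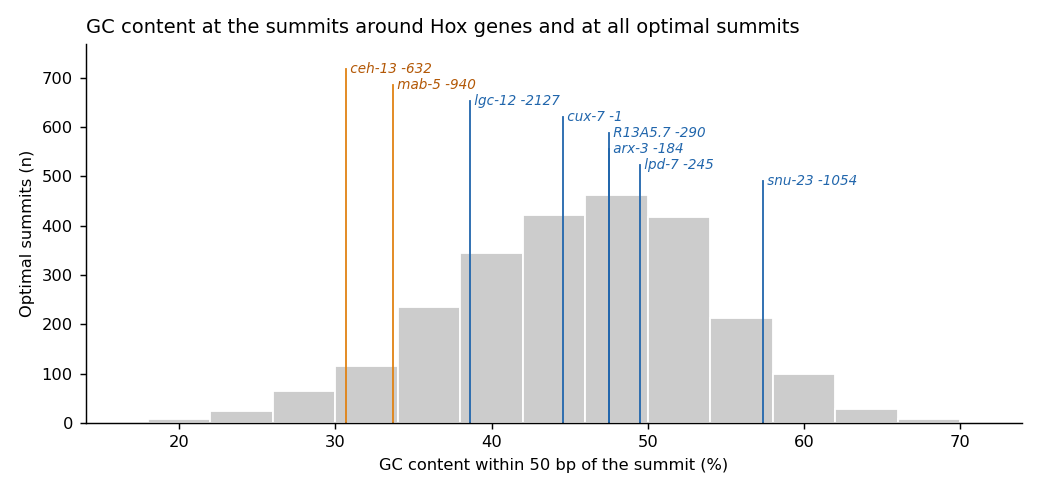
Optimal summits (n) by GC content within 50 bp (%), with the 8 summits around Hox genes marked by their nearest protein-coding gene and distance from its start in bp. The ceh-13 and mab-5 promoter peaks (orange) have 30.7% and 33.7%, while cux-7, arx-3, R13A5.7, lpd-7 and snu-23 lie at 44.6% or above.

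Motifs were counted within 50 bp of each summit, on both strands. GAGAGA and CGCGCG were searched because they had been seen at summits in earlier results of these data. Their shares of all optimal summits are therefore not an independent baseline. TGATNNAT was present at 3 of the 8 optimal summits near Hox genes, against 5.11% of all optimal summits. These were the ceh-13 promoter peak, whose match reads TGATTAAT in the sequence above, the peak downstream of ceh-13, whose match reads TGATGGAT, and the arx-3 peak. Their GC content within 50 bp was 30.7%, 38.6% and 47.5%, where the median of all optimal summits was 46.5%. The part of base composition in these matches was not tested. Below the threshold TGATNNAT was present at 6 of 48 summits (12.5%), against 7.62% of all such regions. TAATTA was present at 1 of the 8, the mab-5 promoter peak, against 2.21% of optimal summits. ACATGT was at 0 of the 8 and at 3.35% of optimal summits. It was in none of the 6 promoter windows, where 26.9% of all windows of this length hold it. GAGAGA was at 0 of the 8 and at 26.5% of optimal summits, although all 6 promoter windows hold it, as do 50.9% of all windows. Below the threshold GAGAGA was at 5 of 48 summits (10.4%), against 7.58% of all such regions. CGCGCG was at 0 of the 8 and at 5.73% of optimal summits. Below the threshold TAATTA was at 4 of 48 (against 4.80%), ACATGT at 0 of 48 (against 2.55%) and CGCGCG at 1 of 48 (against 0.882%). TGATNNAT was in the windows of 5 Hox genes (all but egl-5) and in 64.0% of all windows, and TAATTA in those of mab-5, nob-1 and php-3 and in 47.3% of all windows. No matches overlapped each other in the sequences printed. A match is a run of letters and not a shown binding site.

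Genes that act with the Hox genes were looked at in the same way. Of 19 regulators of Hox genes, 8 (42.1%) carried an optimal summit in their window, where 9.60% of all genes did. They include Polycomb-type genes, which keep Hox genes silent. Among these sor-1 scored 410.1 (rank 179 in replicate 1, 150 in replicate 2), sor-3 scored 215 (ranks 566 and 599), mes-2, an H3K27 methyltransferase gene, scored 193 (ranks 662 and 665), and mes-6 scored 87.8 (ranks 7355 and 2020). The mes-6 summit also lies in the promoter window of tag-77. The trithorax-like genes lin-59 and lin-49, which keep Hox genes active, scored 287 (ranks 300 and 444) and 82.0 (ranks 1914 and 6393). The Wnt effectors pop-1 and sys-1 scored 106 (ranks 1570 and 1821) and 88.4 (ranks 1876 and 2646). The ranks of mes-6 and lin-49 differed most between the replicates. A further 4 regulators had a pooled summit below the threshold, with sop-2, another Polycomb-type gene, just under it at 80.2. With these, 12 of 19 regulators (63.2%) had a pooled summit in the window, where 38.1% of all protein-coding genes did. The other regulators had none: mes-3, listed with mes-2 and mes-6, the caudal and even-skipped relatives pal-1 and vab-7, the Wnt gene egl-20, and sem-4, lin-1 and lin-31.

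Of 5 Hox cofactor genes, 0 carried an optimal summit there (upper Wilson bound 43.4%). The Pbx gene ceh-20 had a region at 69.4, which ranked 2101 in replicate 1 and 24597 in replicate 2, and the Meis gene unc-62 had one at 30.6 that replicate 1 lacked. Of 10 known Hox targets, 0 had one (upper bound 27.8%), and efn-4, an ephrin gene, had the highest pooled score, 48.5. Of 92 other homeobox genes, 2 (2.17%) had an optimal summit. These were ceh-38, a ONECUT gene (score 422, with the summit also in the window of malt-1), and irx-1 itself (score 322), the tagged gene. Whether reads from the transgene add to the irx-1 peak was not tested. The lists overlap: the 92 include the 5 cofactors, the regulators pal-1 and vab-7, and the target mec-3. The 6 Hox genes and these 92 had median upstream intergenic lengths of 18196 bp and 3246 bp, and all protein-coding genes 1156 bp. The part of upstream length in these counts was not tested.

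**Figure D5:**
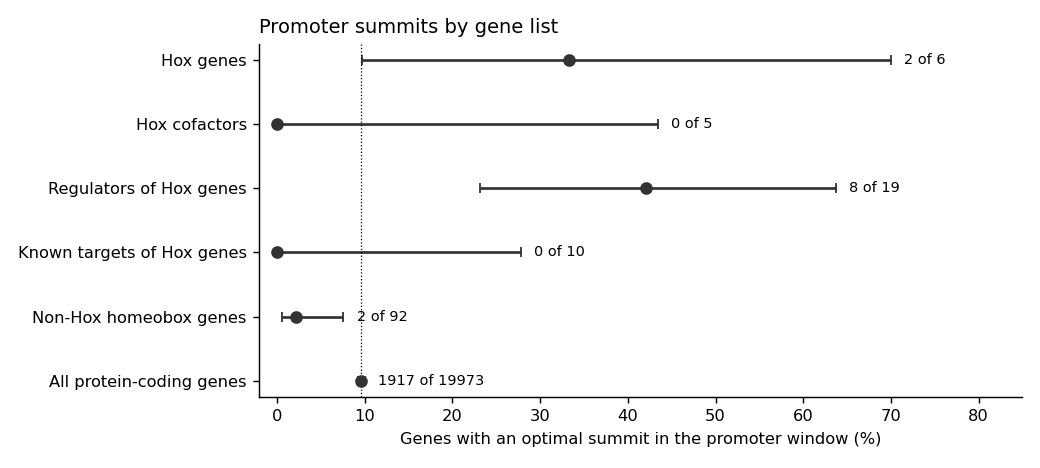
Share of genes whose promoter window holds an optimal summit (%) for each gene list, with 95% Wilson intervals that cover counting error only and the share of all protein-coding genes as a dotted line. Hox genes stand at 2 of 6, their regulators at 8 of 19, cofactors and targets at 0 of 5 and 0 of 10, and other homeobox genes at 2 of 92. The last list includes the cofactors and shares some members with the regulators and targets.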

How the data were processed

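Summits were taken from the ce11 lists that the authors deposited: an optimal list, a pooled permissive list and 1 permissive list for each of 2 replicates. Per the file headers in the deposited notes, the permissive lists came from alignments and a control file and the optimal list from all 3 permissive lists. Caller, aligner and cutoff are not stated there. The deposited peak score (column 7) was used within a list only. The summit is the deposited offset added to the region's start, in 1-based coordinates. The ce10 lists were not used here. Gene starts came from Ensembl release 115 on WBcel235, the assembly ce11 names. Features refer to protein-coding genes. A replicate region matched a pooled one if it held its summit. No test was run over the lists: counts stand beside those of all protein-coding genes. The members and lists were chosen with earlier results of these data known. Named genes were the Hox genes, the gene nearest each optimal summit within 20 kb of them, and list members with an optimal summit in the promoter window; other names were chosen after their values were seen. Placement was tested on simulated data. Scripts ran in Python 3.11.15 with pandas 2.3.3.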

Additional observations from a re-analysis of the deposited data

How the results depend on the processing

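The promoter count of 2 genes was the same ceh-13 and mab-5 with either replicate's own 2445 highest-scoring regions, by overlap, in the wider window and from any transcript start. In those settings 9.24 to 12.4% of protein-coding genes had one. The count was 0 with a window from 500 bp before to 100 bp after the start (7.68% of protein-coding genes) and 1, ceh-13, with the 1222 highest-scoring optimal peaks (5.60%). The pooled list gave 3 (38.1%). Genes with a summit within 20 kb numbered 4, and 2 with those 1222 peaks (36.3% of protein-coding genes) or within 10 kb (36.8%). They numbered 6 within 30 kb (68.7%), where distinct summits numbered 8. Distinct summits fell to 3 with the 1222 peaks and to 3 within 10 kb. Leaving out replicate 1 gave 2 promoter genes (9.24% of protein-coding genes) and 4 genes within 20 kb (55.6%). Leaving out replicate 2 gave 2 promoter genes (9.31%) and 3 genes within 20 kb (55.6%), with php-3 lost. Either way distinct summits numbered 7, with median scores of 58.1 to 67.1 on the replicates' own scales. Of 32 alternative values, 24 stayed within the range set for their result (1.5 times a count) and 8 moved. Among those 8 are the 2 replicate medians, whose scores cannot be compared with those of the pooled list. The causes of the moves were not tested. No paired analysis was possible because there is only 1 group of samples. The depth is unknown, so a weak site missed for lack of reads cannot be told from an unoccupied one.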
